A study of Mus musculus with 4 samples.

Results

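Sarcomeric myosin light chains are small calcium-binding-fold proteins that clasp the neck of the myosin heavy chain in striated muscle. Each myosin head carries an essential light chain and a regulatory light chain. The regulatory chain can be phosphorylated by skeletal myosin light chain kinase, an enzyme switched on by calcium and calmodulin, which raises the force of a contraction. Muscle fibres swap light chain genes as they mature: embryonic muscle uses an essential chain shared with the atrium of the heart, fast fibres use a fast essential and a fast regulatory chain, and slow fibres share theirs with the ventricle.

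The genes described are Mylpf (fast regulatory chain), Myl1 (fast essential chain), Myl4 (embryonic and atrial essential chain), Myl2 (slow and ventricular regulatory chain), Myl3 (slow and ventricular essential chain) and Mylk2, which encodes the skeletal light chain kinase and is not itself a light chain. They were chosen by name: every non-control probe whose gene name in the scanner files is one of these 6 symbols was taken, which gave 9 of the 41174 probes on the array and 6 of its 27398 gene names. Myl1, Myl3 and Myl4 have 2 probes each and the others have 1. All 9 were well above background in each channel of each array, and none of their spots was flagged or saturated. A probe needed to be so in 1 channel on at least 3 arrays to enter the test, a criterion that 27016 probes met.

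The RNA came from C2C12, an established mouse myoblast line whose cells fuse into multinucleated myotubes when serum is lowered, so a differentiated culture holds myotubes beside cells that did not fuse. The treated cultures received 200 ng/ml recombinant human follistatin every 24 h over 6 days of differentiation, and the untreated cultures were differentiated for 6 days without it. The differentiation medium of both is given as 2% horse serum in one label and as 10% in another. Follistatin binds activins and myostatin, secreted factors that restrain muscle growth. Each of the 4 replicates was 1 two-colour array on which the follistatin RNA carried Cy3 and the untreated RNA Cy5. With 1 dye orientation throughout, a dye effect of a probe and the effect of follistatin cannot be told apart. Precision is limited by having 4 arrays.

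Replicates 1, 2 and 3 were on slide 1 and replicate 4 was on slide 2, whose file was also written by a later version of the scanner software. Per channel, 61.1% to 69.4% of non-control spots were well above background. The untreated signals of replicates 2 and 3 stood unusually close: over the tested probes their median absolute difference was 0.11 on the log2 scale, against 0.29 to 0.45 for the other 5 pairs of arrays. In the follistatin channel the same pair differed by 0.28, against 0.29 to 0.44. Across probes, which are not independent replicates, this pair's ratios had r = 0.82 and those of the other pairs 0.038 to 0.32. The labels call the samples biological replicates. Errors and p values with n = 4 treat that pair as separate samples, although their independence was not tested, and means are also given with the pair averaged into 1.

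The culture carried the transcripts that define differentiated muscle. All 8 probes of Myog, Ckm, Acta1, Des, Myh3 and Tnnt3 were well above background in each channel of each array, and 0 of them passed the test. Probes for the adipocyte markers Adipoq and Plin1 and the endothelial markers Pecam1 and Cdh5 were too dim to be tested. Among epithelial and blood markers Cdh1 and Cd68 were measured, while Epcam and Ptprc were too dim.

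Sequences of 7 of the 9 probes are shown, because members of this family resemble each other; those of Myl1 A_51_P416858 and Mylk2 are not printed. Positions are in mm9, the build named in the scanner files, and each 60-base probe below is written 5′ to 3′ as deposited. Capitals mark the stretch of 47 bases that the Myl4 probes share. Of the 36 pairs among the 9 probes, no other pair shared a run of more than 10 bases.
Mylpf A_52_P383572: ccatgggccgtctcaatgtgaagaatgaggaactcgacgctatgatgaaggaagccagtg
Myl1 A_52_P273120: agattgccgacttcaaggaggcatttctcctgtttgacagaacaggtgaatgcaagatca
Myl4 A_51_P413130: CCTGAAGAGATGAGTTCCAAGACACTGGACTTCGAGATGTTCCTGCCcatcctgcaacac
Myl4 A_52_P544523: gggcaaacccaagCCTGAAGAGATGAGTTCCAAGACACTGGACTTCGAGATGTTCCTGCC
Myl2 A_51_P392459: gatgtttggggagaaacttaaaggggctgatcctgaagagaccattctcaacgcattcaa
Myl3 A_51_P177210: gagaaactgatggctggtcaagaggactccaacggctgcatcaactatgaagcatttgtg
Myl3 A_51_P434910: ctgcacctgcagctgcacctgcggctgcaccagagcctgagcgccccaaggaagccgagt

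The Mylpf probe lies at chr7:134356749-134356985 and the Myl2 probe at chr5:122553922-122554872. The Myl4 probes lie at chr11:104445435-104445805 (A_51_P413130) and chr11:104445422-104445792 (A_52_P544523). The Myl3 probes lie at chr9:110671632-110671926 (A_51_P177210) and chr9:110666325-110666384 (A_51_P434910). On the minus strand of chromosome 1, Myl1 probe A_52_P273120 spans chr1:66976853-66981100 and A_51_P416858 spans chr1:66970948-66971007. The Mylk2 probe lies at chr2:152748700-152748759. Where a 60-base probe spans more than 60 bases of genome, its sequence joins separate genomic blocks, as a probe across an exon junction does; this holds for 6 of the 9, and the Myl1 probe A_52_P273120 has the widest span, 4248 bases. The 2 Myl1 probes are assigned in the scanner file to different RefSeq transcripts of the gene. Myl1 is known to give rise to a longer and a shorter essential chain, MLC1f and MLC3f, from separate promoters; which of these each probe detects was not determined.

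None of the 9 probes differed between follistatin and untreated cells beyond the spread between arrays (limma, Benjamini-Hochberg adjustment over 27016 probes, threshold 0.05; smallest adjusted p of the 9 = 0.306). Over all tested probes limma called 2, or 0.0074%, both lower: Olfr1299 and Ces3b, named because they are the only calls. Both were well above background on 4 arrays in the untreated channel and on 0 in the follistatin channel. Their ratios thus rest on follistatin signals near background. An unadjusted p under 0.05 was reached by 0 of the 9 and by 20.8% of all tested probes. The mean ratio was negative for 7 of the 9, against 48.7% of all probes, and the median of the 9 was -0.17 on the log2 scale, against 0.014. One probe, of Myl1, lay over 1.6-fold lower by its mean, against 9.34% of all probes, and 0 lay over 1.6-fold higher, against 6.49%. None of the 9 had 1 sign on all 4 arrays, which 28.2% of all probes had, and for none of them were the signals of the 2 channels separate over the 4 arrays, against 13.4% of all probes.

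**Figure D1:**
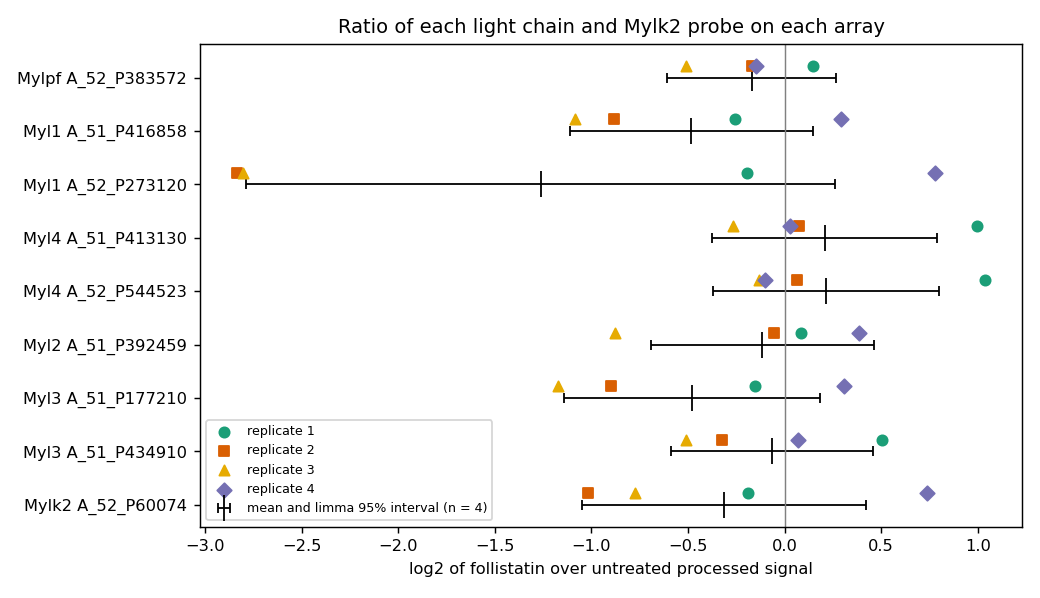
Log2 ratio of follistatin over untreated processed signal (horizontal axis) for each of the 9 probes, with 1 symbol per array and, below the symbols, the mean with its 95% limma interval (n = 4). Every interval crosses 0, and replicates 2 and 3 give the lowest values for Myl1, Myl3 and Mylk2.

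The 9 probes had 4 different orders over the arrays, but their low ends were alike. The lowest ratio fell on replicate 3 for 7 probes and on replicate 2 for the other 2. The highest fell on replicate 4 for 5 probes and on replicate 1 for 4. On replicate 3 all 9 ratios were negative, against 48.3% of all tested probes on that array; 5 were over 1.6-fold lower (18.6% of all) and 0 over 1.6-fold higher (17.5%). On replicate 2, 7 were negative (48.8% of all), 4 were over 1.6-fold lower (14.9%) and 0 over 1.6-fold higher (13.8%). The other arrays looked different. On replicate 1 only 4 were negative (51.3% of all), 0 were over 1.6-fold lower (12.3%) and 2 over 1.6-fold higher (14.2%). On replicate 4 only 2 were negative (50.7%), 0 were over 1.6-fold lower (10%) and 2 over 1.6-fold higher (9.05%). The median ratio of the 9 was 0.086, -0.33, -0.78 and 0.29 on replicates 1 to 4, while that of all tested probes stayed between -0.018 and 0.030. Within slide 1 the median over the probes was -0.28.

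Fast essential chain. Myl1 probe A_52_P273120 gave the lowest mean and the largest SD of the 9. Its follistatin signal was 46539, 8643, 8816 and 44117 on replicates 1 to 4, and the untreated signal was 53234, 61600, 61526 and 25741. Follistatin cells were thus far below untreated cells on replicates 2 and 3, close to them on replicate 1 and above them on replicate 4. The log2 ratios were -0.19, -2.83, -2.80 and 0.78, or 0.874-, 0.140-, 0.143- and 1.71-fold. Their mean was -1.26 ± 1.84 (SD, n = 4), a 0.417-fold level with a 95% interval of 0.145- to 1.20-fold (limma, adjusted p = 0.306). The SD of this probe exceeded that of 99.4% of tested probes. With replicates 2 and 3 averaged the mean was -0.74 (adjusted p = 0.702), and without replicate 4, that is within slide 1, it was -1.94 (adjusted p = 0.109). Without replicate 2 it was -0.74 and without replicate 3 it was -0.75.

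On the other Myl1 probe, A_51_P416858, the follistatin signal was 347051, 261840, 207589 and 321356 and the untreated signal 414259, 482512, 440664 and 262238. The order of the arrays was similar and the range smaller, with follistatin lower on replicates 1, 2 and 3 and higher on replicate 4. Its log2 ratios were -0.26, -0.88, -1.09 and 0.29, with a mean of -0.48 ± 0.63 (SD, n = 4; limma, adjusted p = 0.335) and a 95% interval of 0.462- to 1.11-fold. The mean was -0.32 with replicates 2 and 3 averaged, -0.28 without replicate 3 and -0.74 without replicate 4. The first probe minus the second gave 0.061, -1.95, -1.72 and 0.48, so they agreed within 0.1 only on replicate 1. On the first probe the follistatin signals spanned 5.38-fold over the arrays and the untreated ones 2.39-fold; on the second these spans were 1.67- and 1.84-fold. The mean difference in ratio, -0.78 ± 1.23 (SD, n = 4), did not pass an exact two-sided sign-flip permutation test (p = 0.50, adjusted p = 0.75 over 3 probe pairs), which with 4 arrays cannot go below 0.125.

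**Figure D2:**
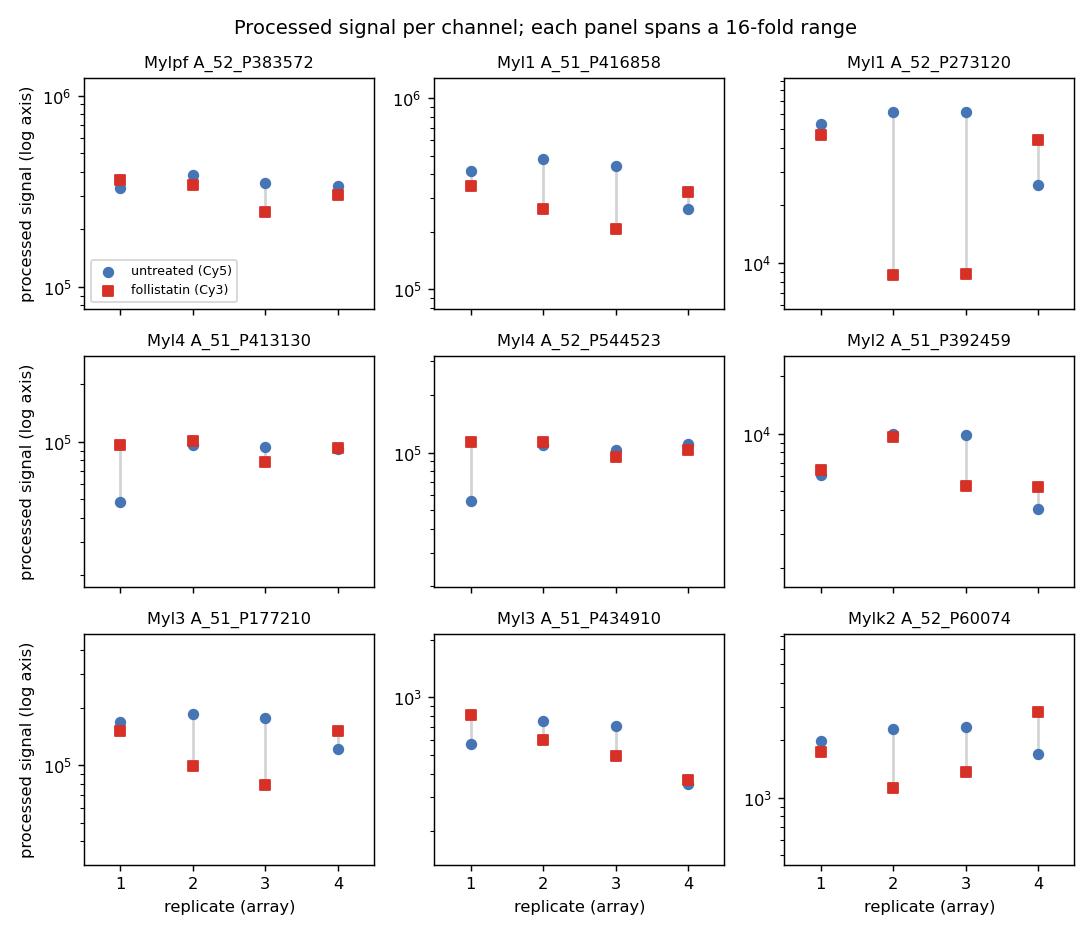
Processed signal (log axis, the same fold range in every panel) of the untreated channel (circles) and the follistatin channel (squares) on each array, joined by a grey line. Myl1 probe A_52_P273120 has the widest gaps, on replicates 2 and 3, where the follistatin signals were 8643 and 8816.

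**Figure D3:**
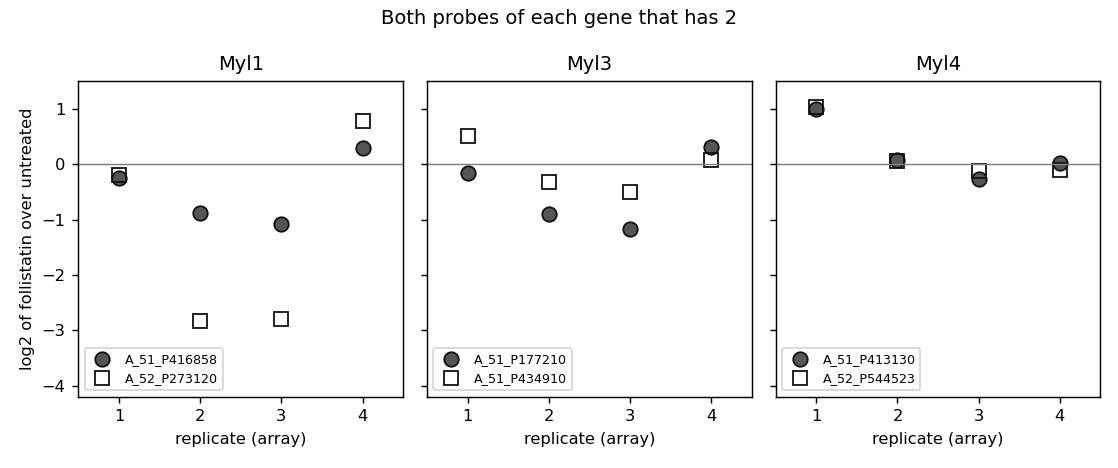
Log2 ratio of follistatin over untreated on each array for the genes with 2 probes. The Myl4 probes, which share 47 bases, stay within 0.14 of each other, while the Myl1 probes part most, by 1.95, on replicate 2.

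Fast regulatory chain. Mylpf, the partner of Myl1 on fast myosin, was the steadiest of the 9, with an SD below the median of all tested probes. Its follistatin signal was 364356, 341839, 246115 and 303987 and its untreated signal 329621, 384218, 351042 and 336512. The channels overlapped, and the 4 untreated values lay within 1.17-fold of each other. The log2 ratios were 0.14, -0.17, -0.51 and -0.15, with a mean of -0.17 ± 0.27 (SD, n = 4; limma, adjusted p = 0.613). The 95% interval ran from 0.656- to 1.20-fold. With replicates 2 and 3 averaged the mean was -0.11, without replicate 1 it was -0.28 and without replicate 3 it was -0.057.

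Embryonic essential chain. The Myl4 probes were the only members with a positive mean, and replicate 1 had their highest ratios. On A_51_P413130 the follistatin signal was 96186, 101025, 78413 and 93204 and the untreated signal 48253, 96053, 94453 and 91492. The follistatin values lay within 1.29-fold of each other, whereas the untreated value of replicate 1 was about 1.99-fold under the highest. Replicates 1 to 4 had log2 ratios of 1.00, 0.073, -0.27 and 0.027, with a mean of 0.21 ± 0.55 (SD, n = 4; limma, adjusted p = 0.646; 95% interval 0.771- to 1.73-fold). The overlapping probe A_52_P544523 gave 1.04, 0.063, -0.13 and -0.10, with a mean of 0.22 ± 0.55 (SD, n = 4; limma, adjusted p = 0.633). Without replicate 1 the means turned negative, to -0.056 and -0.057. Without replicate 3 they were 0.36 and 0.33, and with replicates 2 and 3 averaged 0.31 and 0.30. The probes differed by at most 0.14 on any array; since they share most of their sequence they are not independent measurements.

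Slow regulatory chain. Myl2 had a follistatin signal of 6437, 9630, 5367 and 5264 and an untreated signal of 6066, 10005, 9866 and 4025. Follistatin was lower by a wide margin only on replicate 3. As log2 ratios these were 0.086, -0.055, -0.88 and 0.39, with a mean of -0.12 ± 0.54 (SD, n = 4; limma, adjusted p = 0.804; 95% interval 0.619- to 1.38-fold). The mean was 0.14 without replicate 3, -0.18 without replicate 1, -0.28 without replicate 4 and 0.0021 with replicates 2 and 3 averaged.

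Slow essential chain. The Myl3 probes did not give the same picture. On A_51_P177210 the follistatin signal was 151062, 99607, 78485 and 150631 and the untreated signal 168117, 185764, 176747 and 121892. Follistatin was lower on replicates 1, 2 and 3 and higher on replicate 4, as for Myl1. The log2 ratios were -0.15, -0.90, -1.17 and 0.31, with a mean of -0.48 ± 0.68 (SD, n = 4; limma, adjusted p = 0.357; 95% interval 0.453- to 1.14-fold). Its mean was -0.29 with replicates 2 and 3 averaged, -0.25 without replicate 3 and -0.74 without replicate 4. These ratios followed those of Myl1 probe A_51_P416858 within 0.10 on each of the 4 arrays.

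On the other Myl3 probe, A_51_P434910, the follistatin signal was 811, 598, 497 and 368 and the untreated signal 572, 750, 708 and 351. Follistatin was higher on replicates 1 and 4 and lower on replicates 2 and 3. The ratios on the log2 scale were 0.50, -0.33, -0.51 and 0.069, with a mean of -0.066 ± 0.45 (SD, n = 4; limma, adjusted p = 0.882). The mean was 0.052 with replicates 2 and 3 averaged, and -0.26, 0.021, 0.082 and -0.11 without replicates 1, 2, 3 and 4 in turn. This probe minus A_51_P177210 gave 0.66, 0.57, 0.66 and -0.24, with a mean of 0.41 ± 0.44 (SD, n = 4; exact two-sided sign-flip permutation test, p = 0.25, adjusted p = 0.75 over 3 pairs). Both lie in Myl3 by the scanner file. Whether A_51_P177210 also binds transcripts of other light chain genes was not tested. The runs shared between probes cannot show this, because each probe covers only a small part of its transcript.

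Light chain kinase. Mylk2, which phosphorylates the regulatory chains, had a follistatin signal of 1728, 1130, 1372 and 2821 and an untreated signal of 1973, 2291, 2349 and 1692. It was lower with follistatin on replicates 1, 2 and 3 and higher on replicate 4, the same signs as both Myl1 probes. The log2 ratios were -0.19, -1.02, -0.78 and 0.74, with a mean of -0.31 ± 0.78 (SD, n = 4; limma, adjusted p = 0.580; 95% interval 0.484- to 1.34-fold). Within slide 1 the mean was -0.66 (adjusted p = 0.143), and with replicates 2 and 3 averaged it was -0.12. Without replicate 2 it was -0.077 and without replicate 3 it was -0.16.

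When limma estimated a weight for each array, replicates 2 and 3 received 2.54 and 1.89 against 0.479 and 0.433 for replicates 1 and 4. Under those weights 3 of the 9 probes passed, all lower: Myl1 A_52_P273120 at -2.29 (adjusted p = 0.0194), Myl1 A_51_P416858 at -0.80 (adjusted p = 0.0290) and Myl3 A_51_P177210 at -0.83 (adjusted p = 0.0305). That fit called 29.4% of all tested probes, 14.7% lower, and rests on the arrays whose untreated signals stood closest together. Mylk2 came to -0.72 there (adjusted p = 0.0538).

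**Figure D4:**
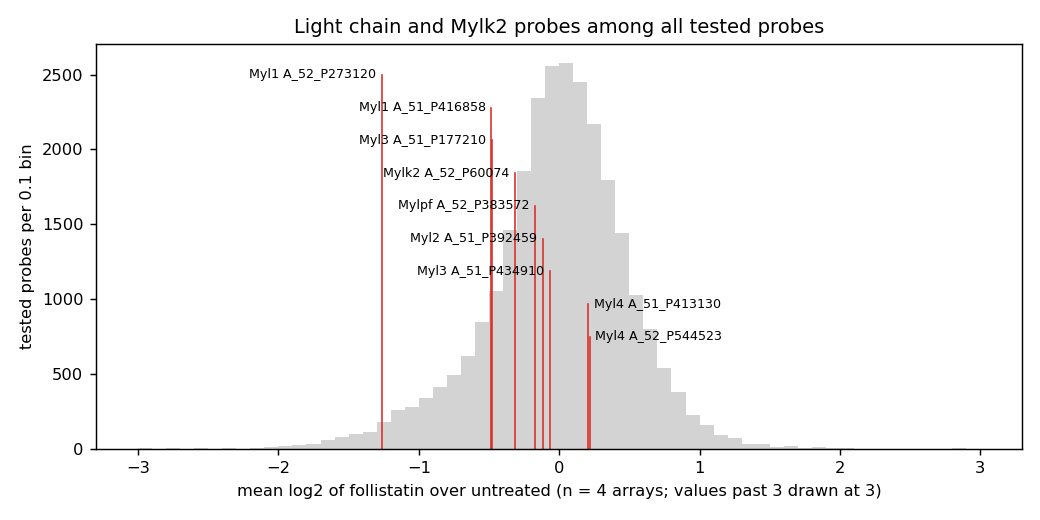
Distribution of the mean log2 ratio (n = 4 arrays) over the 27016 tested probes in grey, with the 9 probes as labelled lines. Only Myl1 A_52_P273120, at -1.26, lies outside the 1.6-fold range, and the others lie between -0.48 and 0.22.

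The wider light chain system gave no call either. Of 28 other genes listed, 24 were tested with 50 probes. The list held other light chains, kinases, phosphatase subunits, calmodulins and sarcomeric heavy chains. Of the 50 probes 0 passed higher and 0 lower, and 10 had an unadjusted p under 0.05 (limma), against 20.8% of all tested probes. Their median log2 ratio was -0.071. The other light chains tested, Myl6, Myl6b, Myl9, Myl12a and Myl12b, had 6 of 8 probes positive and a median of 0.11. The brighter Myl6b probe was at -0.58. Its other probe was dim and went from 0.39 to 0.058 after another background correction and loess. The atrial chain Myl7 was too dim to be tested. Myl12b, a regulatory chain of non-muscle cells, was at 0.52 (SE 0.16, limma, adjusted p = 0.164) and positive on 4 of 4 arrays, though its other probe was at 0.080. Kinases had 4 of 8 probes positive. Phosphatase subunits had 5 of 9 positive, and the calmodulins, which activate Mylk2, 5 of 8. The phosphatase subunit Ppp1r12b had the smallest p, on a dim probe at 1.59 (adjusted p = 0.102) that was well above background on 3 arrays in the follistatin channel and 1 in the untreated channel; it came to 0.18 after another background correction and loess, and its other 3 probes lay between -0.22 and 0.099.

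The sarcomeric heavy chains, to which these light chains bind, had 15 of 17 probes negative with a median of -0.40, 0 of them past the threshold. Of these, Myh2 A_52_P552036, a fast heavy chain, was at -0.80 (SE 0.22, limma, adjusted p = 0.138) and Myh4 A_51_P338072, another fast chain, at -0.50 (SE 0.16, limma, adjusted p = 0.172), each negative on 4 of 4 arrays. Over all tested probes 28.2% had 1 sign on all 4 arrays. The other Myh4 probe was at -0.23 (limma, adjusted p = 0.471) and slightly positive on replicate 1. The other Myh2 probes lay between -0.75 and -0.65. Of them, A_51_P225134 was negative on 4 of 4 arrays. A_51_P395652 had an SD of 1.42 and was positive on replicate 4, at 0.91. A_52_P582746 was dim and went from -0.66 to -0.075 after another background correction and loess. By array the heavy chain median was 0.016, -0.52, -0.78 and -0.32 on replicates 1 to 4, and the median of the 8 light chain probes was 0.12, -0.25, -0.70 and 0.18. Both sets were thus lowest on replicate 3, and on replicate 4 their medians had opposite signs; no test was made of the sets against each other.

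**Figure D5:**
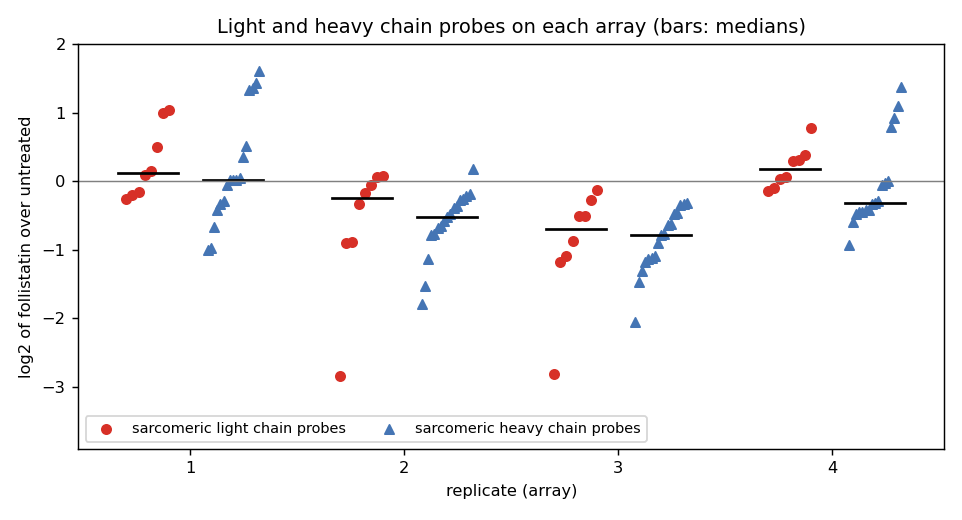
Log2 ratio of follistatin over untreated for the 8 sarcomeric light chain probes (circles) and the 17 sarcomeric heavy chain probes (triangles) on each array, with medians as bars. Both medians are lowest on replicate 3, at -0.70 and -0.78.

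None of the marker probes passed the test, higher or lower. The probes of the 6 differentiated muscle genes had 5 of 8 negative means and a median of -0.24. Their summed signal ran from 549195 to 947297 with follistatin and from 639462 to 1057090 without. The Acta1 and Myh3 probes were the brightest in that sum. The tested probes of the cycling-cell genes Mki67 and Top2a had 4 of 4 positive means, from 0.42 to 0.87. Over all tested probes 48.7% of means were negative. The summed signal of Mki67 and Top2a ran from 4252 to 6619 with follistatin and from 3383 to 4272 without. Most of it came from Mki67 probe A_51_P253803, with mean signals of 3779 and 2833, so the sum mainly follows that probe. Top2a probe A_52_P415299 was dim and went from 0.79 to 0.15 after another background correction and loess. A further Top2a probe was too dim to be tested. The myoblast genes Myod1, Myf5 and Pax7 had 2 of 3 positive. The cardiac muscle genes Nppa, Tnni3 and Myh6 were also measured, with 5 of 5 tested probes negative and a median of -0.19. The part of the marker levels in the light chain ratios was not tested, and in bulk RNA fewer myotubes and less light chain RNA per myotube cannot be told apart.

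The genes whose ratios were nearest to the mean profile of the 5 light chain genes (0.17, -0.39, -0.76 and 0.15 on replicates 1 to 4) were found by root mean square difference over the 4 arrays among 12914 genes. They were Plcb1, a phospholipase C, at 0.068, Taf7, a subunit of the general transcription factor TFIID, at 0.073, Irs4, an insulin receptor substrate, at 0.079, Tmem38a, a cation channel of the sarcoplasmic reticulum, at 0.080, and Fkbp15 at 0.080. The member probes lay between 0.21 for Myl3 A_51_P434910 and 1.64 for Myl1 A_52_P273120 from that mean. The mean used 1 probe per gene, that of highest signal, and so neither of these probes. That the named genes lay nearer follows from picking the nearest of 12914. With 4 arrays such nearness is a description only.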

How the data were processed

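The deposited intensity files are scanner output of Agilent Feature Extraction. The submitters' processing notes name version 10.7.3.1, and the header of replicate 4 gives 10.10.1.1. Per the file headers, processed intensity had local background removed and the dyes of an array brought to one scale. The deposited log10 ratio (Cy5 over Cy3) served to check direction, and the authors' table of log2 values equalled log2 of processed Cy3 over Cy5 (r = 1.00 and slope 1.00 on each array).

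Ratios are log2 of processed follistatin (Cy3) over untreated (Cy5) signal, with no further centring; medians over tested probes lay between -0.018 and 0.030. Control spots and outlier-flagged spots were left out and spots of a probe averaged. Probes well above background in 1 channel on at least 3 arrays were tested against 0 with limma 3.58.1 (lmFit, eBayes) in R 4.3.3, with Benjamini-Hochberg adjustment. Intervals are 95% from limma. Processed signals were not scaled between arrays, and levels of different probes are not comparable. Repeated spots of 180 probes had a median SD of 0.040 to 0.055 log2 units within an array. On simulated ratios for 27016 probes, limma recovered 17% of 100 probes changed by 1 log2 unit and 95% of 100 changed by 2. It also made 12 false calls. These shares are not for the members: Myl1 A_52_P273120, for 1, had an SD above that of 99.4% of tested probes. The members, lists and alternatives were chosen with earlier results of these data known. All member probes are named. Of the other genes of the system the 4 probes with the smallest p are named, since none passed. Further probes are given where they limit a count or a range. Gene names in the search for like profiles were updated through RefSeq (GRCm38.p6), used for names alone.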

Additional observations from a re-analysis of the deposited data

Results flagged for a closer look

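On Myl4 probe A_52_P544523, replicate 1 stood apart from the other arrays: its log2 ratio was 1.04 against -0.13 to 0.063, and the gap to the nearest value was 0.833 of the whole range, above Dixon's 95% critical value for 4 samples. The same measure was 0.730 for the overlapping Myl4 probe. Over all tested probes 5.81% passed that value, and chance alone flags about 1 in 20.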

How the results depend on the processing

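No member probe passed in 16 of the 17 alternatives; with array weights 3 passed, beside 7939 of all tested probes. The count over all probes, 2 as reported, was 0 with normexp on median signals and loess, with only probes above background in every channel of every array, with replicates 2 and 3 averaged, with an intensity trend and without any 1 replicate (0 to 0). The methods' t-test, which ignores the pairing of channels (no replicate block), called 3 of all probes and 0 members after adjustment, and 2423 and 0 at an unadjusted p under 0.05 with over 1.6-fold. The array ratio itself is the paired comparison.

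The sign of Mylpf, both Myl1 probes, Myl3 A_51_P177210 and Mylk2 held in every alternative run. In several alternatives the member means equalled the reported ones, so no sign could turn there. These were the authors' values, other probe filters, outlier spots kept, the intensity trend, 1 probe per gene and the methods' t-test. Without 1 replicate, means ran from -0.28 to 0.14 for Myl2, from -0.26 to 0.082 for Myl3 A_51_P434910, from -0.056 to 0.36 for Myl4 A_51_P413130 and from -0.057 to 0.33 for Myl4 A_52_P544523, turning sign without replicate 3, without replicate 2 or 3, and without replicate 1. With replicates 2 and 3 averaged Myl2 was at 0.0021 and Myl3 A_51_P434910 at 0.052. The cause was not tested. The median of the 9 probes stayed between -0.31 and -0.057. Changes of 1 log2 unit were mostly below what 4 arrays can call.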
